A study of Homo sapiens with 6 samples.

Results

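The dual-specificity MAP kinase phosphatases are enzymes that switch off the mitogen-activated protein (MAP) kinases ERK, JNK and p38. A MAP kinase is active only while both a threonine and a tyrosine in its activation loop carry a phosphate, and these phosphatases remove both. Several of their genes are themselves switched on by the kinases they silence, so that they act as negative feedback, and the members differ in which kinase they prefer and in whether they work in the nucleus or the cytoplasm. In hepatic stellate cells, the pericytes of the liver sinusoid, MAP kinases act downstream of growth factors, cytokines and TGF-β1. The members were chosen by gene symbol from a list of 10, and all 10 were found, each on a single row, among the 20332 genes of the table. DUSP5, DUSP6 and DUSP7 were set apart as selective for ERK, and DUSP8 and DUSP10 as selective for JNK and p38. DUSP1, DUSP2 and DUSP4 formed the nuclear, inducible enzymes of broader range, and DUSP3 and DUSP14 the small atypical enzymes that lack the amino-terminal kinase-binding domain.

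RNA was sequenced from LX-2, an immortalised human hepatic stellate cell line. Of the 6 libraries, 3 came from cells given TGF-β1 with 10 µM of a compound known only by its number, compound 11, and 3 from cells given TGF-β1 with the solvent DMSO, all for 48 h. Every group therefore carried TGF-β1, and cells without it were not analysed here, which leaves resting cells out of every comparison. Nothing in the labels tells separate cultures from repeat libraries of a single culture. The p-values therefore reflect only how much these libraries vary, which may be technical variation.

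Levels are in TPM, transcript abundances scaled for transcript length and to the same total in every library. Sequencing depth is unknown. The libraries listed 14699 to 14830 genes above 0, and across the genes tested their log2 levels correlated at 0.993 to 0.994 within groups and 0.960 to 0.961 between groups. Of 13 stellate cell markers, 10 averaged at least 1 TPM, while DES was listed at 0 in all 6 libraries. Markers of other liver cells were low but moved with the groups. The 8 hepatocyte markers summed to 19.2 to 27.5 TPM with compound 11 and 3.67 to 4.56 TPM in DMSO, with SERPINA1 the only marker of the 8 averaging 1 TPM and APOB, HNF4A, APOA1 and TTR at 0 throughout. The 5 endothelial markers summed to 6.15 to 7.49 TPM with compound 11 and 2.24 to 2.59 TPM in DMSO, and the 6 macrophage markers, with VSIG4 at 0, to 5.14 to 5.63 TPM with compound 11 and 3.01 to 4.04 TPM in DMSO. The 4 cholangiocyte markers summed to 38.3 to 38.9 TPM with compound 11 and 26.1 to 31.7 TPM in DMSO. Their part in the results on the phosphatases was not tested.

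The phosphatase transcripts as a family were more abundant with compound 11, and the increase was uneven. The 10 members together summed to 614, 607 and 626 TPM with compound 11, against 374, 377 and 375 TPM in DMSO, a ratio of means of 1.64. In such bulk libraries, a change in the number of cells that express a gene and a change in its RNA per cell cannot be told apart. DUSP6 alone supplied about as much of that increase as the other members together: without it the sums were 474, 473 and 478 TPM with compound 11 and 358, 357 and 355 TPM in DMSO, a ratio of 1.33. In limma, a linear model fitted to log2(TPM + 1) of 12067 genes with Benjamini-Hochberg adjustment, 9 members were tested and 6 rose (DUSP3, DUSP4, DUSP5, DUSP6, DUSP10 and DUSP14), where 25.3% of all genes tested rose at the adjusted p threshold of 0.05. DUSP1 fell, where 24.3% of all genes fell, and DUSP7 and DUSP8 did not pass. The rise reached at least 1 on the log2 scale for DUSP4, DUSP5 and DUSP6, 3 of the 9, against 3.40% of all genes. Levels of compound 11 and DMSO libraries did not overlap for 8 of the 9 members tested, DUSP8 being the exception, against 57.8% of all genes. The median log2 fold change of the 9 was 0.39, beside 0.00 for all genes tested.

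**Figure D1:**
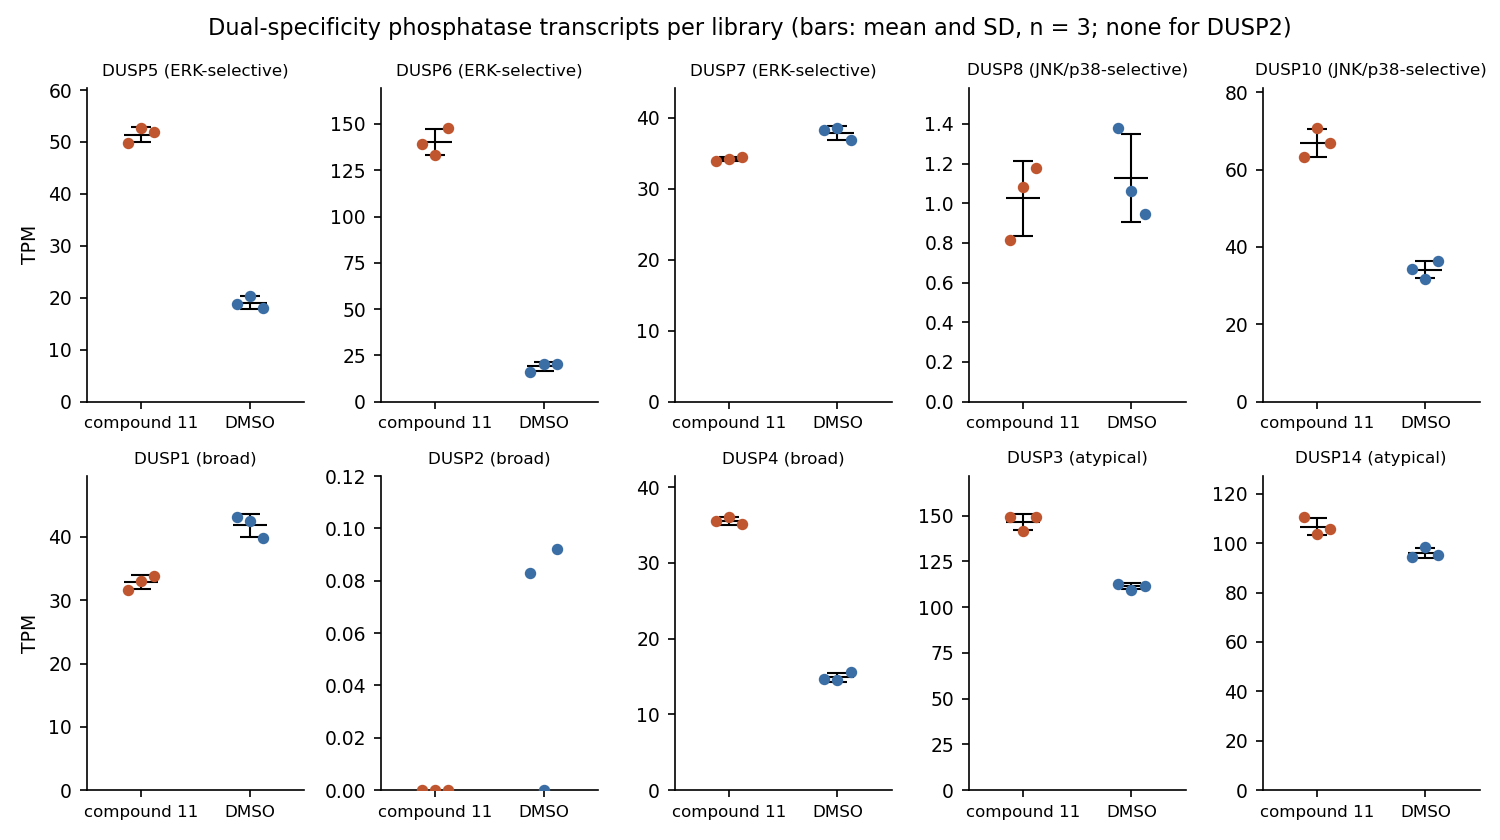
TPM of each of the 10 phosphatases (vertical axes, from 0, with a scale of its own per gene) in the 3 compound 11 libraries (left, orange points) and the 3 DMSO libraries (right, blue points), with mean and SD bars for all but DUSP2. DUSP6 sits at 133 to 148 TPM with compound 11 and 16.2 to 20.5 TPM in DMSO, whereas DUSP8 overlaps between the groups near 1 TPM.

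Among the ERK-selective enzymes, DUSP6 stood highest and DUSP7 did not follow it. DUSP6, also called MKP-3, is the cytoplasmic phosphatase of ERK and a standard readout of ERK signalling. It was at 139, 133 and 148 TPM with compound 11, against 16.2, 20.5 and 20.4 TPM in DMSO. All compound 11 libraries lay far above all DMSO libraries, and the means of 140 ± 7.10 and 19.0 ± 2.48 TPM (SD, n = 3 each) differed 7.36-fold. Its log2 fold change was 2.82 with an SE of 0.09 (limma, Benjamini-Hochberg adjusted p = 1.39e-08), the 27th highest of the 12067 genes tested. DUSP6 lies on chromosome 12 at 89347232 to 89353271, minus strand (GRCh38, GENCODE v29, protein-coding). An annotated antisense gene overlaps its exons, and since the sources used here do not state whether counting used strand, reads of the pair cannot be told apart. Its promoter window, shown because this gene moved most, runs from 250 bases before to 50 bases after the RefSeq start site at chr12:89352452-89352751 (GRCh38.p14, minus strand, printed 5′ to 3′). This window lies wholly inside the GENCODE v29 gene, whose 5′ end is at 89353271, so sequence before that end was not searched. The last 50 bases occur in a GENCODE v29 transcript of the gene:
DUSP6: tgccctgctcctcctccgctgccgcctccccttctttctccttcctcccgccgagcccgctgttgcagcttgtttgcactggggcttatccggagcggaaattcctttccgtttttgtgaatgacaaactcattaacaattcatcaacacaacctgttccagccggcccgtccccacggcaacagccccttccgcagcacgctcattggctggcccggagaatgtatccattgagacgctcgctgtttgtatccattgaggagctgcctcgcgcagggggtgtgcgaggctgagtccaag

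DUSP5 is a nuclear phosphatase of ERK that ERK itself induces. It was at 49.7, 52.6 and 52.0 TPM with compound 11, against 18.8, 20.4 and 18.0 TPM in DMSO, with no overlap. The ratio of means was 2.70 and its log2 fold change 1.39 with an SE of 0.07 (limma, Benjamini-Hochberg adjusted p = 2.36e-07). In DMSO it equalled DUSP6, 19.0 ± 1.22 TPM for DUSP5 and 19.0 ± 2.48 TPM for DUSP6, so the gap between these genes appeared only in the compound 11 libraries. DUSP5 lies on chromosome 10 at 110497838 to 110511544 (plus strand), and GENCODE v29 holds 2 processed pseudogenes of it, whose share in its reads is not known.

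DUSP7 is the other cytoplasmic ERK phosphatase of the list and a close relative of DUSP6. It was at 33.9, 34.2 and 34.5 TPM with compound 11, against 38.3, 38.5 and 36.8 TPM in DMSO. The groups did not overlap, but the difference was small, 1.11-fold lower with compound 11, and it missed the threshold (log2 fold change -0.14, 95% interval of -0.27 to -0.02 before adjustment, limma, Benjamini-Hochberg adjusted p = 0.0577). It passed under 4 of the 15 alternative settings. The ratio of DUSP6 to DUSP7 was 4.11, 3.90 and 4.28 in the compound 11 libraries and 0.422, 0.534 and 0.554 in the DMSO libraries. In DMSO, DUSP7 was thus the most abundant ERK-selective transcript, and with compound 11 it was the least abundant.

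**Figure D2:**
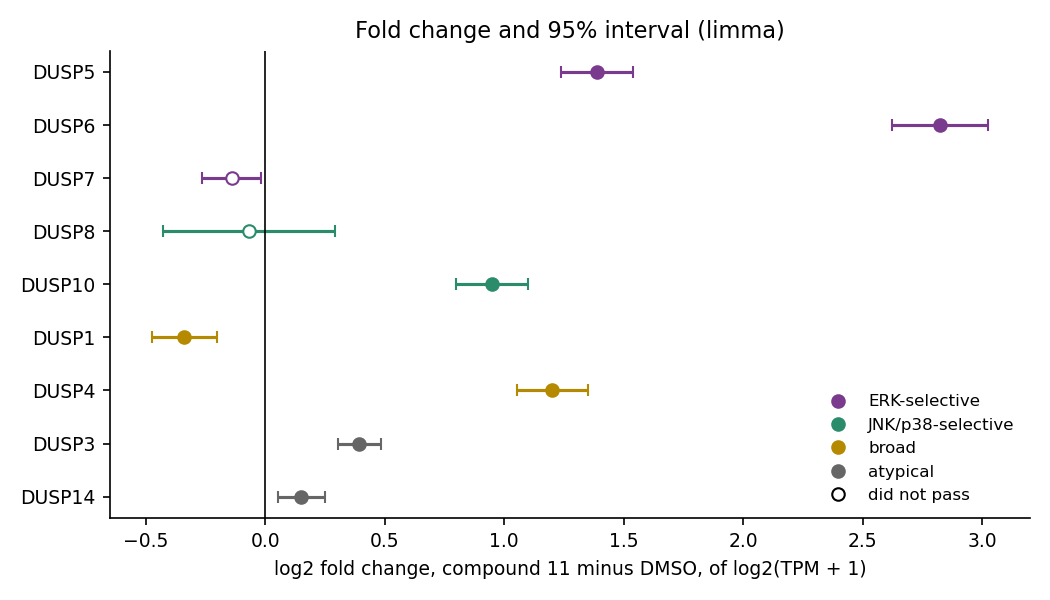
Log2 fold change of log2(TPM + 1), compound 11 minus DMSO (horizontal axis), for the 9 members tested, with 95% intervals from limma. Filled points passed the threshold and open points did not; colours mark the kinase preference. DUSP6 at 2.82 stands apart, DUSP5, DUSP4 and DUSP10 lie between 0.95 and 1.39, and DUSP1 at -0.34 is the only filled point below 0.

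Of the enzymes for JNK and p38, DUSP10 rose and DUSP8 stayed near 1 TPM. DUSP10, or MKP-5, dephosphorylates JNK and p38 and spares ERK. It was at 63.2, 70.6 and 66.7 TPM with compound 11, against 34.3, 31.8 and 36.4 TPM in DMSO, again with no overlap. The means differed 1.96-fold (limma log2 fold change of 0.95, SE 0.07, and Benjamini-Hochberg adjusted p = 3.24e-06). Its 95% interval, 0.80 to 1.10, lay below those of DUSP5, 1.24 to 1.54, and DUSP6, 2.62 to 3.02. DUSP10 lies on chromosome 1 at 221701424 to 221742176 (minus strand) and is the longest of these genes, at 40753 bases. RefSeq gives it windows at a pair of start sites; the upstream one, at chr1:221742040-221742339 (GRCh38.p14, minus strand, 5′ to 3′), is shown for comparison with that of DUSP6:
DUSP10: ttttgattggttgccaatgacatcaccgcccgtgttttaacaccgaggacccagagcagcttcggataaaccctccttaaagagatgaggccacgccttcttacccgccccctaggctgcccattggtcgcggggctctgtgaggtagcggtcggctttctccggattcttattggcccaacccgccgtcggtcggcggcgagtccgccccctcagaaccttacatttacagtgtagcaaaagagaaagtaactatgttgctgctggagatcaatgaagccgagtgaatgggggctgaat

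DUSP8 prefers JNK and p38 and is best known from brain and heart. It was at 0.815, 1.08 and 1.18 TPM with compound 11, against 1.38, 1.06 and 0.944 TPM in DMSO, and the groups overlapped. The log2 fold change of -0.07 had a 95% interval of -0.43 to 0.29 (limma, Benjamini-Hochberg adjusted p = 0.741), so changes within these bounds could not be seen at this level. Its sign turned when replicate 1 of either group was left out (0.01 in both cases). GENCODE v29 lists 3 processed pseudogenes of DUSP8, so a value near 1 TPM is uncertain.

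The enzymes of broader range split. DUSP4, or MKP-2, is a nuclear enzyme that acts on ERK and JNK and is induced by ERK. It was at 35.5, 36.1 and 35.1 TPM with compound 11, against 14.6, 14.5 and 15.6 TPM in DMSO. The means of 35.6 ± 0.488 and 14.9 ± 0.583 TPM (SD, n = 3 each) did not come near each other and differed 2.38-fold (limma log2 fold change of 1.20, SE 0.07, and Benjamini-Hochberg adjusted p = 5.71e-07).

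DUSP1, or MKP-1, is the immediate early phosphatase of stress and glucocorticoid responses and prefers p38 and JNK over ERK. It was at 31.6, 33.1 and 33.8 TPM with compound 11, against 43.1, 42.5 and 39.8 TPM in DMSO. Every compound 11 library was below every DMSO library, by 1.27-fold in the means (limma log2 fold change of -0.34, SE 0.06, and Benjamini-Hochberg adjusted p = 0.00129). DUSP1 was slightly less abundant than DUSP4 with compound 11 and far more abundant than DUSP4 in DMSO, the ratio of DUSP4 to DUSP1 being 1.12, 1.09 and 1.04 in the compound 11 libraries and 0.339, 0.342 and 0.391 in the DMSO libraries. DUSP1 is a compact gene of 3106 bases on chromosome 5 at 172768090 to 172771195 (minus strand). Its RefSeq window at chr5:172771146-172771445 (GRCh38.p14, minus strand, 5′ to 3′) is shown because it holds motifs that the windows of DUSP6 and DUSP10 printed above lack. Capitals mark the cAMP response element TGACGTCA, further copies of its core TGACG on either strand, and the TATA motif TATAAA:
DUSP1: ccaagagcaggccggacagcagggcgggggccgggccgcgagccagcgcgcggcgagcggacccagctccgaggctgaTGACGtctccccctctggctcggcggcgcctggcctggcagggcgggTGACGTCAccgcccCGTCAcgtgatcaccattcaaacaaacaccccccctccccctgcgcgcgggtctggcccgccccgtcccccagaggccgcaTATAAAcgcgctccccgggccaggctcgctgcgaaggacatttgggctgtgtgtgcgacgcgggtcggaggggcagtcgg

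Windows of this kind were found in RefSeq for 8 of the 10 members, and the motifs were searched on both strands in them and in 35116 windows of the same length in the RefSeq table. The cAMP response element occurred in 1.85% of all windows and in those of DUSP1, where it starts 125 bases upstream of the start site, and DUSP8, which holds 2 copies. The 50 transcribed bases of the DUSP7 and DUSP8 windows were not found in a GENCODE v29 transcript of these genes, and the RefSeq start of DUSP8 lies upstream of its GENCODE v29 gene, so the place of its matches relative to the start is uncertain. Its core TGACG, which is part of the full element, occurred in 24.6% of all windows, and TATAAA in 11.5%, among the members only in that of DUSP1. The core also occurred in the windows of DUSP3, DUSP8 and the downstream start of DUSP10. The E-box CACGTG, in 7.26% of all windows, occurred in those of DUSP1 and DUSP2. The AP-1 motifs TGACTCA and TGAGTCA (4.95% of all windows), the ETS motif CCGGAAG (10.3%) and the CArG box of serum response factor (1.29%) had no match in any member's window. The windows of DUSP6 and DUSP10 printed above hold none of these motifs and no capitals. Their GC content was 58.3% and 55.0%, near the median of 58.7% over all windows, and that of DUSP1 was 73.3%. The members' windows ranged from 55.0% to 81.0%, and those of DUSP2, DUSP3, DUSP7, DUSP8 and DUSP14 were higher in GC than that of DUSP1. A match is a run of letters and says nothing of binding, and more distant elements were not examined. Apart from the CArG box, each motif was searched only as the exact letters given. A window without a match, such as that of DUSP6 for ETS, may therefore hold variants of the motif.

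DUSP2, or PAC-1, is known mainly from activated lymphocytes. It was listed at 0 in all 3 compound 11 libraries and at 0.083, 0 and 0.092 TPM in the DMSO libraries, and it was too low to be tested.

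The atypical enzymes were the most abundant members in DMSO and rose least among the members that rose. DUSP3, or VHR, acts on ERK and JNK. It was at 149, 142 and 149 TPM with compound 11, against 113, 110 and 112 TPM in DMSO, 1.32-fold higher with no overlap (limma log2 fold change of 0.39, SE 0.04, and Benjamini-Hochberg adjusted p = 3.9e-05). DUSP14, or MKP-6, was at 111, 104 and 106 TPM with compound 11, against 94.4, 98.2 and 95.4 TPM in DMSO. The groups of DUSP14 did not overlap, but the difference was 1.11-fold (limma log2 fold change of 0.15, SE 0.04, and Benjamini-Hochberg adjusted p = 0.0182). Its call was lost without compound 11 replicate 1, DMSO replicate 1 or DMSO replicate 3 (adjusted p = 0.0696, 0.0639 and 0.0513), and in 4 of the 15 alternatives in all. DUSP3 and DUSP14 lie apart on chromosome 17, at 43766121 to 43778988 and at 37489831 to 37513501.

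With these changes the order of the members differed between the groups. With compound 11 it ran DUSP3, DUSP6, DUSP14, DUSP10, DUSP5, DUSP4, DUSP7, DUSP1, DUSP8 and DUSP2, and DUSP3 and DUSP6 were the only neighbours whose libraries overlapped. In DMSO it ran DUSP3, DUSP14, DUSP1, DUSP7, DUSP10, DUSP5, DUSP6, DUSP4, DUSP8 and DUSP2, and only DUSP5 and DUSP6 overlapped. DUSP6 thus stood second of the members with compound 11 and seventh in DMSO, and made up 22.0% to 23.6% of the family's transcripts with compound 11 and 4.32% to 5.45% in DMSO. The atypical pair held 40.5% to 42.3% with compound 11 and 55.1% to 55.4% in DMSO, although both of its genes rose. Levels of different genes also depend on the transcript models used for length scaling, which the sources used here do not name.

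**Figure D3:**
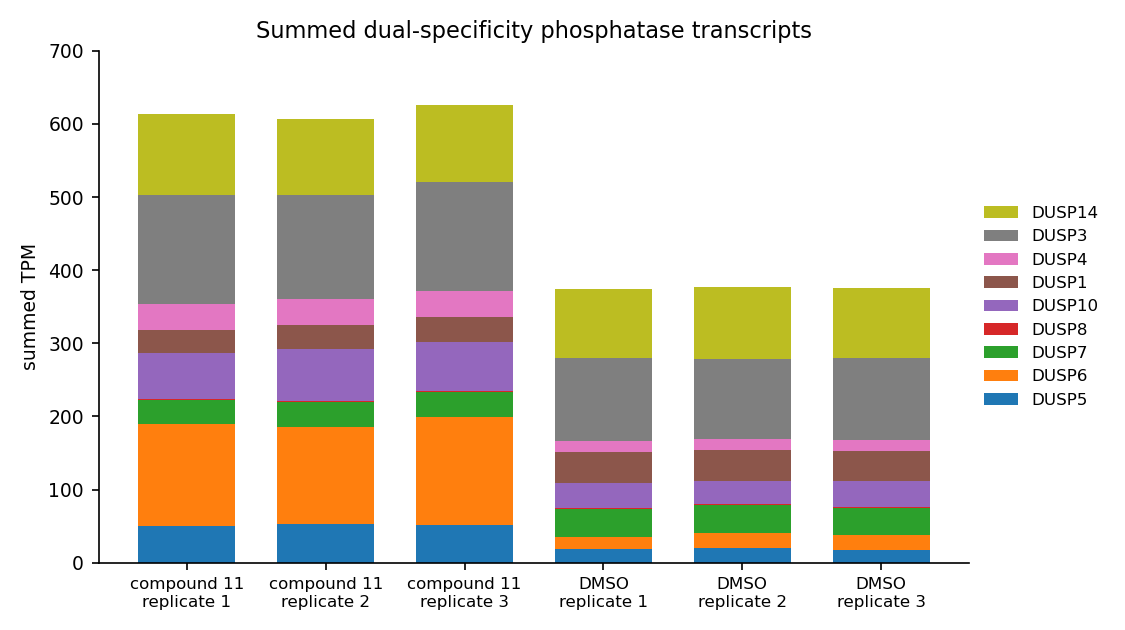
Summed TPM of the phosphatases in each library (bars, from 0), stacked by gene, with the 3 compound 11 libraries on the left and the 3 DMSO libraries on the right; DUSP2 is too low to draw. The bars reach 607 to 626 TPM with compound 11 and 374 to 377 TPM in DMSO, and the DUSP6 segment accounts for much of the difference.

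Set against each other, the ERK-selective members outgrew those for JNK and p38, and this rested on DUSP6. DUSP5, DUSP6 and DUSP7 summed to 223, 220 and 234 TPM with compound 11, against 73.2, 79.4 and 75.1 TPM in DMSO, a ratio of means of 2.97. DUSP8 and DUSP10 summed to 64.0, 71.7 and 67.9 TPM with compound 11, against 35.7, 32.9 and 37.3 TPM in DMSO, a ratio of 1.92 that was carried by DUSP10. The ERK-selective sum over the JNK and p38-selective sum was 3.48, 3.07 and 3.45 in the compound 11 libraries and 2.05, 2.42 and 2.01 in the DMSO libraries, without overlap. With DUSP6 left out, the order turned round: the ratio was 1.31, 1.21 and 1.27 with compound 11 and 1.60, 1.79 and 1.47 in DMSO. Since the sums run over members chosen with results known, no test is given. These are transcript levels, and neither phosphatase protein nor MAP kinase phosphorylation was measured.

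**Figure D4:**
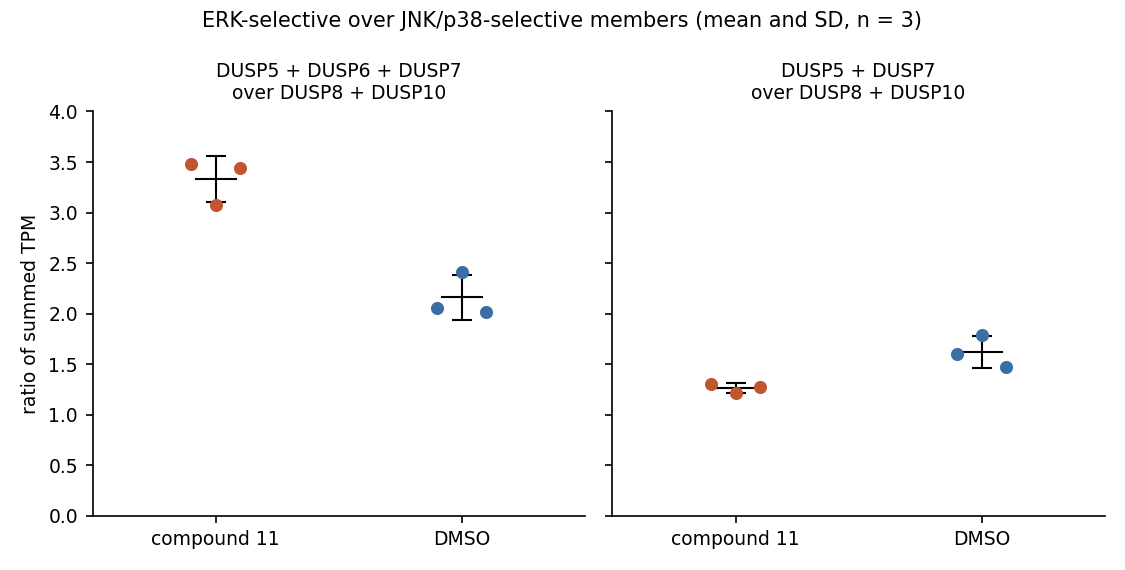
Ratio of summed TPM of ERK-selective members to that of the JNK and p38-selective members (vertical axis, from 0) per library, with mean and SD, for compound 11 (left, orange) and DMSO (right, blue) in each panel. With DUSP6 (left panel) the compound 11 libraries lie higher, at 3.07 to 3.48; without DUSP6 (right panel) they lie lower, at 1.21 to 1.31.

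Other dual-specificity phosphatases, which are not members, changed in both directions. DUSP16, or MKP-7, the remaining typical phosphatase for JNK and p38, was at 26.1 ± 0.668 TPM with compound 11 and 13.5 ± 1.39 TPM in DMSO (SD, n = 3 each; log2 fold change 0.90, limma, Benjamini-Hochberg adjusted p = 2.46e-05), a rise close to that of DUSP10. DUSP9, the third cytoplasmic ERK phosphatase, was listed at 0 in all 6 libraries. With both added to the sums, the ratio of ERK-selective to JNK and p38-selective transcripts was 2.46, 2.26 and 2.50 with compound 11 and 1.44, 1.73 and 1.51 in DMSO. Of 8 other atypical enzymes tested, DUSP11 and DUSP23 rose, DUSP15 and STYX fell and 4 did not pass, with a median log2 fold change of 0.03. These counts are close to the shares over all genes tested, of which 25.3% rose and 24.3% fell. DUSP15 was at 4.68 ± 0.791 TPM with compound 11 and 9.35 ± 0.549 TPM in DMSO. The call of DUSP11 (log2 fold change 0.20) was lost in 5 alternatives, 4 of which left out replicate 2 or 3 of either group.

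Among 6 tested phosphatases of other families that act on MAP kinases, PPM1A and PTPRR rose, PPM1B and PPP2CA fell and 2 did not pass. Their median log2 fold change was 0.05, and over all genes tested 25.3% rose and 24.3% fell. PTPRR, a tyrosine phosphatase that binds ERK through the same kind of docking motif as the dual-specificity enzymes, was at 15.1 ± 0.685 TPM with compound 11 and 3.67 ± 0.429 TPM in DMSO, 4.12-fold higher (limma log2 fold change of 1.79, SE 0.11, and Benjamini-Hochberg adjusted p = 1.02e-06). The call of PPM1A was lost in 5 alternatives, 4 of which left out compound 11 replicate 2 or 3 or DMSO replicate 1 or 2.

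The kinases themselves changed in both directions, except that none of the MAP3 kinases tested passed as lower. For the counts that follow, the shares over all 12067 genes tested were 25.3% that rose and 24.3% that fell, while 6083 genes did not pass. No list of kinases was compared with these shares by a test. Of 12 tested genes of the ERK arm, from RAS to ERK, ARAF and MAP2K1 rose, 4 fell, with HRAS the lowest, and 6 did not pass, with log2 fold changes between -0.47 and 0.32 and a median of -0.02. The call of ARAF was lost without compound 11 replicate 2, DMSO replicate 1 or DMSO replicate 3, and that of 1 gene that fell was lost in 4 alternatives. Of 10 tested genes of the JNK and p38 arms, MAP2K3, MAP2K7 and MAPK13 rose, MAP2K6 fell and 6 did not pass. The call of MAP2K7 was lost without DMSO replicate 1 (adjusted p = 0.051). MAP2K3 and MAP2K6 both activate p38. MAP2K3 was at 117 ± 5.37 TPM with compound 11 and 39.0 ± 2.68 TPM in DMSO (log2 fold change 1.56, limma, Benjamini-Hochberg adjusted p = 6.22e-08), whereas the scarcer MAP2K6 was at 0.414 ± 0.0378 TPM with compound 11 and 2.20 ± 0.315 TPM in DMSO (log2 fold change -1.17, adjusted p = 0.000169). MAP2K6 passed the filter on low values through the DMSO libraries alone, and its log2 fold change was -2.15 and -2.37 with pseudocounts of 0.1 and 0.01. MAPK13, a p38 kinase at 2.87 TPM with compound 11 and 0.645 TPM in DMSO, passed the filter through the compound 11 libraries alone. MAPK13 likewise moved with the pseudocount, its log2 fold change being 1.23 with 1 and 2.15 with 0.01. Of 14 upstream MAP3 kinases tested, 5 rose, none fell and 9 did not pass (median 0.20). They were MAP3K3, MAP3K5, MAP3K8, MAP3K10 and MAP3K12, with log2 fold changes of 0.22, 1.03, 0.67, 0.61 and 0.38. The value of the low MAP3K5 was 1.52 and 1.60 with pseudocounts of 0.1 and 0.01. MAP3K8 overlapped between the groups and lost its call in 8 alternatives, among them leaving out any library but compound 11 replicate 2, and its log2 fold change was 0.41 without compound 11 replicate 3. Of 10 kinases that MAP kinases activate, 6 rose, MKNK1 and RPS6KA4 fell and 2 did not pass (median 0.19), and the call of MKNK1 was lost in 9 alternatives, among them leaving out any library but DMSO replicate 1. Of 7 scaffolds tested, SPAG9 rose, KSR1 fell and 5 did not pass (median 0.01).

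Genes known to be induced by ERK moved mostly the way of DUSP4, DUSP5 and DUSP6. Of 17 tested, 14 rose, 0 fell and ETV5, MYC and EPHA4 did not pass (log2 fold changes of 0.16, 0.13 and -0.11), with a median log2 fold change of 0.96. Over all genes tested 25.3% rose and 24.3% fell, and this list was chosen with earlier results of these data known. ETV5 passed with the replicate block (adjusted p = 0.0416) and without the 20 most abundant genes (0.0299). MYC passed with quantile normalization (adjusted p = 0.0252), without compound 11 replicate 2 (0.0475) and without the 20 most abundant genes (0.0316). SPRY2, PHLDA1, FOSL1 and IER3 had the smallest adjusted p; SPRY2, the Sprouty inhibitor of receptor signalling, was at 138, 143 and 144 TPM with compound 11 and 19.8, 20.3 and 21.6 TPM in DMSO, levels much like those of DUSP6. For 8 genes listed as induced by JNK and p38, the median log2 fold change was 0.30. PTGS2, DDIT3, IL6, ZFP36 and GADD45A rose, with log2 fold changes of 2.15, 1.00, 1.41, 0.46 and 0.15. GADD45B, JUN and ATF3 fell, with -1.34, -0.25 and -0.78. The low PTGS2 was at 7.73 TPM with compound 11 and 1.01 TPM in DMSO, and its log2 fold change was 2.91 with a pseudocount of 0.1. The call of ZFP36 was lost without compound 11 replicate 3 (adjusted p = 0.0506). GADD45B was at 75.8 ± 5.83 TPM with compound 11 and 193 ± 14.0 TPM in DMSO (log2 fold change -1.34, limma, Benjamini-Hochberg adjusted p = 3.45e-07), and JUN, the AP-1 subunit that JNK phosphorylates, was at 153 ± 1.55 TPM with compound 11 and 182 ± 3.48 TPM in DMSO (-0.25, adjusted p = 0.000377). All of these genes also respond to other pathways, and the lists were not compared by a test.

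**Figure D5:**
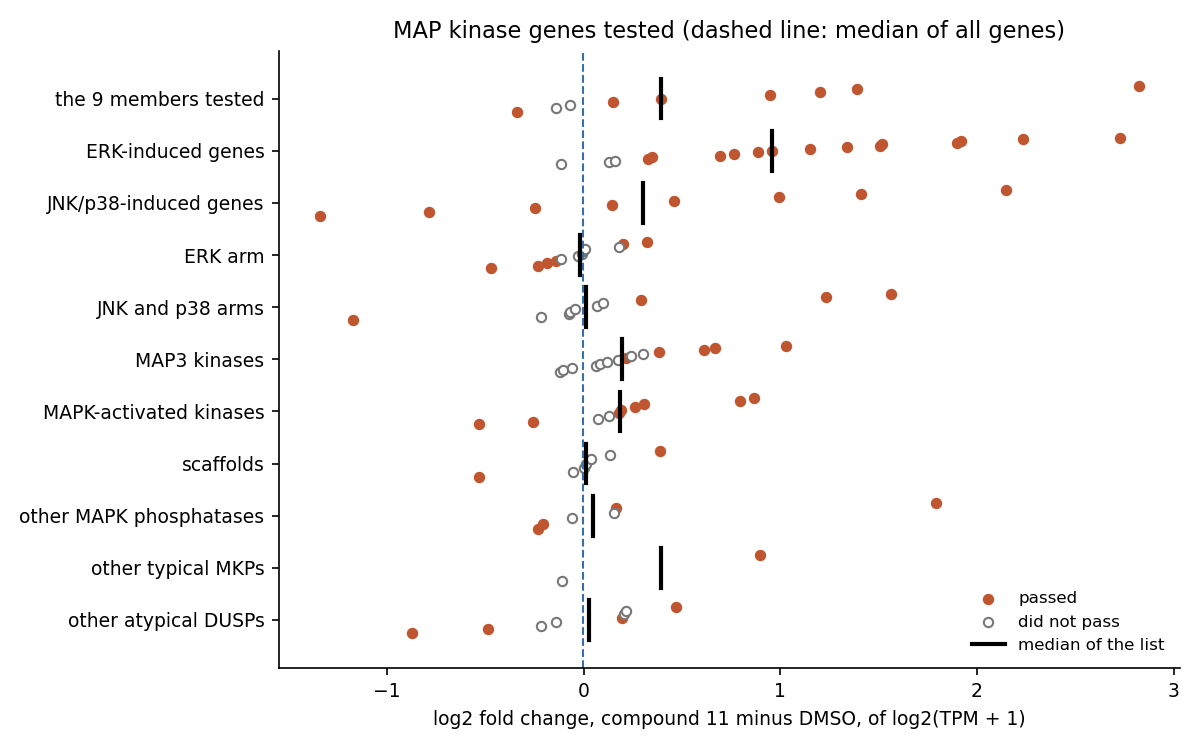
Log2 fold change of log2(TPM + 1), compound 11 minus DMSO (horizontal axis), of each gene tested in the phosphatase family and the other MAP kinase lists. Filled points passed the threshold, open points did not, thick bars are list medians and the dashed line is the median of all genes. The ERK-induced genes have the highest median, 0.96, while the ERK arm itself centres at -0.02.

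For the extremes of the family, the genes with the nearest pattern over the 6 libraries were sought among all genes tested, by Euclidean distance between log2(TPM + 1) values centred on each gene's mean. With 2 groups far apart, such likeness reflects the size of the difference more than any finer pattern. Nearest to DUSP6 were HSD11B1, SPRY2 and LPXN, at distances of 0.26, 0.26 and 0.28. SPRY2 and LPXN had log2 fold changes of 2.73 and 2.82. HSD11B1 is far scarcer than DUSP6, at 9.09 ± 0.814 TPM with compound 11 and 0.262 ± 0.146 TPM in DMSO, and passed the filter through the compound 11 libraries alone. Its means differed 34.7-fold, against 7.36-fold for DUSP6, and its log2 fold change was 4.76 with a pseudocount of 0.1, so its nearness depends on the pseudocount of 1. Nearest to DUSP1 were AAR2, DFFA and DCTN1, at distances of 0.04, 0.04 and 0.06 and with log2 fold changes of -0.34, -0.32 and -0.35.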

How the data were processed

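Total RNA of LX-2 cells was extracted with TRIzol and made into libraries with an Illumina TruSeq kit, per the labels' protocols. Bowtie 0.12.2 and the builds GRCh38.p12 and mm8, a mouse build, appear in the submitters' processing notes with no role; the sources used here name no counting tool, annotation or use of strand. Per the file headers the deposited values are FPKM, but each column sums to 1000000, so the authors' values are on the TPM scale. This scale keeps no sequencing depth, so no counting error can be given, and a gene's TPM can fall because others rise.

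Groups came from the sample titles. The 12067 genes (9 of them members) that reached 1 TPM in 3 or more libraries were tested as log2(TPM + 1) with limma 3.58.1 in R 4.3.3, on group alone, with moderated variances that follow the mean. Tests were two-sided, adjusted by Benjamini-Hochberg over all these genes, with a threshold of 0.05. The log scale understates the change of a low gene, and a fold with no mention of log2 is a ratio of mean TPM. The code was tested on simulated data. Named genes were all members, up to 4 genes with the smallest adjusted p per list, genes in any direction with 5 or fewer, the genes that did not pass in lists with 3 or fewer of them, and the 3 nearest genes of the members with the highest and lowest fold change. Members and lists were chosen with earlier results of these data known, and naming genes that did not pass was decided after their values were seen. Some genes of the lists are not reported here. Gene positions are from GENCODE v29 and promoter windows from RefSeq (GRCh38.p14). Alternatives were pseudocounts of 0.1 and 0.01, no filter, a filter on a mean of 5 TPM, upper quartile scaling, quantile normalization, untrended variances, a block for replicate number, each library left out, and, chosen after seeing the data, removal of the 20 most abundant genes.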

Additional observations from a re-analysis of the deposited data

How the results depend on the processing

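DUSP1, DUSP3, DUSP4, DUSP5, DUSP6 and DUSP10 kept their direction and passed under all 15 alternatives; DUSP6 ranged over log2 fold changes of 2.72 to 2.89 and DUSP1 over -0.38 to -0.31. The members that fell numbered 2 rather than 1, DUSP7 joining DUSP1, with no filter on low values, upper quartile scaling, quantile normalization and variances without a mean trend (DUSP7 adjusted p = 0.0457, 0.0442, 0.023 and 0.0471, range over all alternatives 0.023 to 0.144). DUSP14 ranged over adjusted p = 0.00802 to 0.0696. DUSP8 changed sign without compound 11 replicate 1 (log2 fold change 0.00599) or DMSO replicate 1 (0.012), and with single libraries left out it ranged over -0.133 to 0.012, always far from the threshold (adjusted p = 0.59 to 0.98). The log2 ratio of ERK-selective to JNK and p38-selective transcripts, compound 11 minus DMSO, was 0.628 and turned to -0.354 with DUSP6 left out. Among the other genes, 2 that did not pass changed sign, MKNK2 without DMSO replicate 1 and STYXL1 without compound 11 replicate 3; with single libraries left out they ranged over -0.00687 to 0.124 and -0.22 to 0.00364. Leaving out DUSP6 and removing the most abundant genes were chosen after seeing the data. Under the alternatives the median log2 fold change of all genes ranged over -0.0253 to 0.0246. Replicate numbers did not count as pairs: deviations of same-numbered libraries correlated at 0.0794, 0.149 and 0.0663, although each of the 6 libraries correlated best with its own number, a hint from the data only. With the replicate block 3172 genes rose and 3054 fell, and among members no call changed; among the other named genes MKNK1 lost its call (adjusted p = 0.0557) and ETV5 gained one (0.0416). DUSP2 entered only with no filter (adjusted p = 0.299). Unknown depth limits what can be said of DUSP2 and DUSP8.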
